A study of Mus musculus with 4 samples.

Results

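The genes described here are the nuclear genes of oxidative phosphorylation: protein-coding records of the mouse GENCODE M1 annotation (build mm9) whose symbols begin with Ndufa, Ndufb, Ndufc, Ndufs or Ndufv, Sdha to Sdhd, Uqcr, Cox4 to Cox8, or Atp5. The rule uses names only and found 94 of 22350 protein-coding gene records, with 93 symbols because Ndufb8 has 2 records. They comprise 43 records of complex I, 6 of complex II, 8 of complex III, 19 of complex IV and 18 of complex V. By role, 85 are subunits, 6 are assembly factors (Ndufaf1 to Ndufaf4, Sdhaf1 and Sdhaf2), and 3 share a prefix without coding for a subunit (Cox4nb, Atp5s and Atp5sl). Atp5l-ps1, a pseudogene by its symbol, is annotated as protein coding and was kept, counted among the subunits.

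ATAC-seq, in which the Tn5 transposase inserts adapters into accessible DNA, was performed on primary myoblasts from 2 WT and 2 Tet2 KO samples of C57BL/6 background. Satellite cells, the stem cells of skeletal muscle, were sorted from the hindlimb, kept in proliferation medium for 3 days until they were MyoD+ myoblasts, and harvested at 5000 cells per library. In the Tet2 KO mice, exon 3 of Tet2, which codes for a dioxygenase that oxidises 5-methylcytosine, was deleted by homologous recombination in every cell and not only in muscle. By the study's methods mice were males of 8 to 10 weeks unless stated otherwise, and how many animals made up a sample is not given in the sources used here. The values used here are 1 list of peaks per genotype, in which all peak names carry a single library code, so that a list may rest on 1 of the 2 samples, and no difference between WT and Tet2 KO carries a replicate check or a p-value.

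Oxidative phosphorylation takes place at the inner mitochondrial membrane. Complexes I and II pass electrons from NADH and succinate to ubiquinone, complex III passes them on to cytochrome c, complex IV passes them to oxygen, and complex V, the ATP synthase, uses the resulting proton gradient to make ATP. Most subunits are coded in the nucleus, and their promoters are known to be bound by NRF1, the ETS factor GABP, YY1 and the oestrogen-related receptors. Muscle uses specific isoforms of several complex IV subunits.

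The WT list held 25775 peaks and the Tet2 KO list 3836. Peak numbers ran to 35482 and 8239, so 9707 and 4403 numbers did not occur in the lists, and a gene without a listed peak could still have had one called. Fold enrichment is the number of fragments at the summit over the local background of that peak in its own list, with 1 added to both. The background seen most often in the Tet2 KO list, 1.38 fragments, was 2.13 times that of the WT list, 0.649, so folds of the 2 lists are not on a common scale. They are given side by side for each gene, no difference between them is read as a change, and ranks are given as percentiles among the promoter peaks of the same list. The fragments at the summit had a median of 16 in WT and 15 in Tet2 KO. Of 9 myoblast markers, 3 had a WT promoter peak (Des, Myod1 and Myog) and 2 a Tet2 KO promoter peak (Des and Myod1). Of 4 endothelial markers Pecam1 had a WT promoter peak and none had a Tet2 KO peak, while 0 of 4 blood and 0 of 4 fibroadipogenic markers had a promoter peak in either list. Whether the samples differed in cell composition was not tested. The Tet2 gene had 3 WT peaks, 1 of them at its promoter, and 0 Tet2 KO peaks, which does not show the deletion of exon 3.

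The promoters below are shown because their genes had a promoter peak, from 1000 bp upstream to 100 bp downstream of the gene start, in both lists. Each stretch has 81 bases of mm9, read 5′ to 3′ on the strand of the gene, centred on the summit of the Tet2 KO peak or moved upstream to end before the start. Capitals mark matches on either strand to CCAAT (NFY core), GGGCGGG (SP/KLF) or GCATGCGC (NRF1 core). The coordinates are chr10:127520133-127520213 for Atp5b, chr11:95937001-95937081 for Atp5g1, chr19:3912822-3912902 for Ndufs8, chr12:70825868-70825948 for Atp5s, chr19:7292214-7292294 for Cox8a, chr4:140517037-140517117 for Sdhb, chr15:102501479-102501559 for Atp5g2 and chr19:4012807-4012887 for Ndufv1. Atp5b, Atp5s and Sdhb lie on the plus strand and the others on the minus strand. All stretches lie upstream of the annotated start, outside any annotated exon.
Atp5b: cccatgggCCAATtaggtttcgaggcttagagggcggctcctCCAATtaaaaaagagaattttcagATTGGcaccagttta
Atp5g1: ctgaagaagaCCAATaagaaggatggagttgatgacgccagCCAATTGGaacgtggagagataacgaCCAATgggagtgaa
Ndufs8: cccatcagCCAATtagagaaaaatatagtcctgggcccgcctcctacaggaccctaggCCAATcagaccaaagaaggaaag
Atp5s: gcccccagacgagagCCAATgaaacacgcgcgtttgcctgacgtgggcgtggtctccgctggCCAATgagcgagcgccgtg
Cox8a: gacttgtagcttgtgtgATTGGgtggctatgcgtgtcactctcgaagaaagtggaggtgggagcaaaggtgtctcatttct
Sdhb: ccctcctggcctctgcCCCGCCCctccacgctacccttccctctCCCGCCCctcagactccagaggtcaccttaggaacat
Atp5g2: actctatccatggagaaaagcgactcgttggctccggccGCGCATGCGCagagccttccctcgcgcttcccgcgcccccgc
Ndufv1: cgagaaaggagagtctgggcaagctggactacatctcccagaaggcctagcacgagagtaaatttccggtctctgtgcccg

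Atp5b held 3 CCAAT matches within this stretch, and Atp5g1 held 4, of which a forward and a reverse match overlapped. Ndufs8 and Atp5s held 2 each and Cox8a held 1. In Atp5g2 a forward and a reverse match to the NRF1 core overlapped, and Sdhb held 2 matches to the SP/KLF letters. The stretch of Ndufv1 held no match to the motifs searched. A match describes the letters in the window and is not evidence that a factor was bound.

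In WT myoblasts, 51 of the 94 gene records had a promoter peak, against 9 in Tet2 KO myoblasts. The WT share was 54.3% (95% Wilson interval 44.2% to 64.0%), and the share over all protein-coding genes was 26.7%. The Tet2 KO share was 9.57% (5.12% to 17.2%), and the share over all protein-coding genes was 6.94%. The Wilson intervals cover counting error only, and the genes of a list are not independent replicates. The members thus held WT promoter peaks more often than protein-coding genes in general, while the interval of their Tet2 KO share included the overall share.

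The promoters of these genes are rich in CpG. By the measure used, at least 50% GC and an observed to expected CpG ratio of at least 0.6 over 300 bases, 63.8% of the members and 42.0% of all protein-coding genes were CpG-rich. Among all CpG-rich genes, 48.3% had a WT and 13.5% a Tet2 KO promoter peak. Both values lie inside the intervals of the whole set of members, but only a part of that set is CpG-rich, so the groups are not alike. Of 82 cytosolic ribosomal protein genes, another large housekeeping family, 52.4% had a WT promoter peak (41.8% to 62.9%) and 12.2% a Tet2 KO promoter peak (6.76% to 21.0%). Within the members, 37 of 60 CpG-rich records had a WT peak and 7 a Tet2 KO peak, compared with 14 and 2 of the 34 other records.

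**Figure D1:**
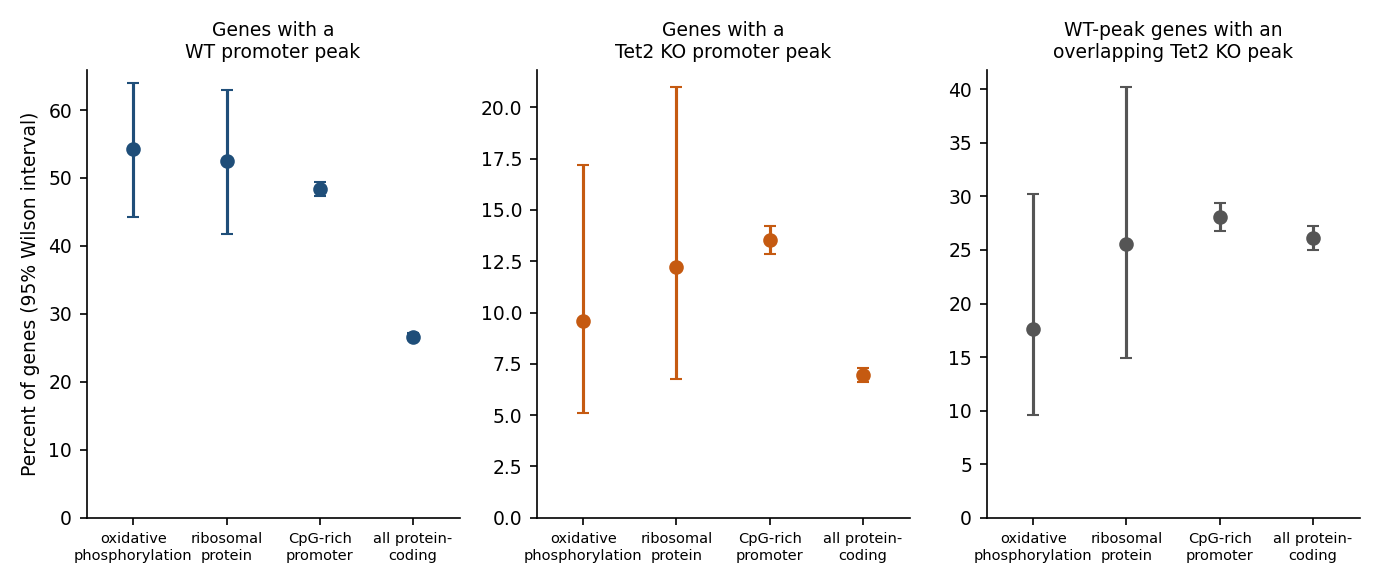
Percent of genes with a WT promoter peak (left), with a Tet2 KO promoter peak (middle), and of WT-peak genes whose peak overlapped a Tet2 KO peak (right), for 4 groups of genes; points are shares, bars 95% Wilson intervals, and the 3 panels have different vertical scales. The oxidative phosphorylation genes sit at 54.3%, 9.57% and 17.6%, within the intervals of the ribosomal protein genes in all 3 panels and far above all protein-coding genes only in the left panel.

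All 9 genes with a Tet2 KO promoter peak also had an overlapping WT peak, as had 98.8% of the other protein-coding genes with a Tet2 KO promoter peak. As a share of the members with a WT promoter peak this was 17.6% (9.57% to 30.3%), and over all protein-coding genes with a WT promoter peak the share was 26.1%. It was 28.1% among CpG-rich genes and 25.6% among ribosomal protein genes, and the members' interval included each of these values. Counted by peaks, the members had 53 WT promoter peaks, with 2 each at Ndufaf3 and Uqcrh, and 10 Tet2 KO promoter peaks, a ratio of 5.30, compared with 3.96 for the promoter peaks of all protein-coding genes.

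Complex I, NADH dehydrogenase, had a WT promoter peak at 23 of 43 records and a Tet2 KO peak at 3, among them Ndufs8 and Ndufv1, which both code for core subunits, the part of the enzyme that carries the flavin and iron-sulphur clusters. The Wilson intervals of the shares were 38.9% to 67.5% and 2.40% to 18.6%.

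Ndufv1, the flavin-binding subunit that accepts electrons from NADH, had a WT fold enrichment of 13.2 with 28 fragments at the summit, 10 bp downstream of the start, and a Tet2 KO fold of 6.03 with 15 fragments, 4 bp downstream. Ndufs8, which binds iron-sulphur clusters, had a WT fold of 11.3 with 28 fragments and a Tet2 KO fold of 5.54 with 18 fragments, with summits 142 and 145 bp upstream. Complex I members with a WT peak only ranged from a fold of 5.81 at Ndufb6 to 10.7 at Ndufb11 and Ndufv2, the last a core subunit.

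The complex I records without a WT promoter peak were Ndufa1, Ndufa4l2, Ndufa5, Ndufa7, Ndufa9, Ndufa10, Ndufa12, Ndufa13, Ndufaf1, Ndufaf4, Ndufb7, both records of Ndufb8, Ndufb9, Ndufb10, Ndufc1, Ndufc2, Ndufs1, Ndufs3 and Ndufs4. Ndufa5, a small accessory subunit, had a WT peak of fold 11.3 with 20 fragments 410 bp downstream of the gene start, at the start of another of its transcripts and at the promoter of Asb15, and no Tet2 KO peak there. Ndufa4, listed by name with complex I although its protein is found in complex IV, had a WT promoter peak of fold 6.22 that lies also at the promoter of Phf14. Its paralogue Ndufa4l2, known as a gene induced by hypoxia, had no promoter peak in either list and a WT peak of fold 5.95, 1855 bp upstream of the start.

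Complex II, succinate dehydrogenase, had WT promoter peaks at 4 of 6 records: Sdhb, Sdhd, Sdhaf1 and Sdhaf2. Sdhb, the iron-sulphur subunit, had a WT fold of 9.50 with 31 fragments and a Tet2 KO fold of 5.13 with 16 fragments, and it was the complex II member with a Tet2 KO peak. Sdhaf1, an assembly factor for the iron-sulphur subunit, had a WT fold of 9.64, slightly above that of Sdhb, but with 18 fragments over a lower background, and no Tet2 KO peak. The flavin subunit Sdha and the membrane anchor Sdhc had no promoter peak in either list.

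Complex III, the cytochrome bc1 complex, had the highest share of genes with a WT promoter peak, 7 of 8, and 0 of 8 with a Tet2 KO promoter peak. The Wilson intervals were 52.9% to 97.8% and 0% to 32.4%, so with 8 genes a Tet2 KO share as large as that of any other complex was not outside the interval. Uqcrc2, a core subunit, had the highest WT fold of the group, 11.3 with 21 fragments. Uqcrh, the hinge protein, followed with 9.80 and 23 fragments, at a promoter that lies within 1000 bp of the start of Lrrc41. Uqcrfs1, the Rieske iron-sulphur protein, had 7.53, and Uqcrc1, Uqcrq, Uqcr10 and Uqcrb lay between 5.78 and 6.19. Uqcr11 had no promoter peak in either list.

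Complex IV, cytochrome c oxidase, had the lowest share with a WT promoter peak, 8 of 19, and 1 Tet2 KO promoter peak, at Cox8a. The Wilson intervals were 23.1% to 63.7% and 0.935% to 24.6%, and both overlapped those of complex III. Cox8a, the ubiquitous form of subunit VIII, had a WT fold of 12.1 with 27 fragments and a Tet2 KO fold of 6.28 with 17 fragments. Cox7c, which codes for a small subunit, had the higher WT fold, 12.4, with fewer fragments, 21, and no Tet2 KO peak. Cox5a and Cox5b, which code for further nuclear subunits, had WT folds of 7.34 and 6.63 and no Tet2 KO peak.

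Tissue isoforms of complex IV did not follow a common pattern in the WT list. The heart and muscle isoforms Cox7a1 and Cox8b had WT promoter peaks of fold 5.79 with 10 fragments and 5.46 with 8 fragments, and the third muscle isoform, Cox6a2, had none. Of their ubiquitous partners, Cox7a2 had a WT fold of 6.74 and Cox8a 12.1, while Cox6a1 had no listed peak. The related Cox7a2l, known for its role in supercomplexes, had 6.02. Cox4i1, Cox4i2, Cox6b1, Cox6b2, Cox7b, Cox7b2 and Cox8c, among which Cox6b2, Cox7b2 and Cox8c are known as testis forms, had no promoter peak in either list. Cox6c and Cox4nb, a divergent neighbour of Cox4i1, had none as well.

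Complex V, the ATP synthase, had WT promoter peaks at 9 of 18 records and Tet2 KO promoter peaks at 4, the largest number of any complex: Atp5b, Atp5g1, Atp5g2 and Atp5s. Atp5b, the catalytic beta subunit, had a WT fold of 10.1 with 22 fragments and the highest Tet2 KO promoter fold among the members, 6.38 with 16 fragments. Its summits lay 184 and 156 bp upstream of the start. Atp5s, which shares the prefix and is known as a coupling factor and not as a core subunit of the synthase, had a WT fold of 9.82 with 21 fragments and a Tet2 KO fold of 4.42 with 11 fragments.

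The 3 genes Atp5g1, Atp5g2 and Atp5g3 code for the same mature subunit c, the ring of the rotor, and differ in their import peptides and promoters. Atp5g1 had the highest WT fold of all members, 13.5 with 33 fragments, in a single peak that spanned the start. In the Tet2 KO list the same stretch held 2 separate peaks, of fold 5.93 with 15 fragments 285 bp upstream and of fold 5.70 with 14 fragments 57 bp upstream. The latter summit lies within the stretch printed above with its 4 CCAAT matches. The 81 bases around the summit of the stronger peak, 285 bp upstream, are not printed and held no match to the motifs searched. Atp5g2 had a WT fold of 6.12 with 16 fragments and a Tet2 KO fold of 3.93 with 11 fragments, and Atp5g3 had no promoter peak in either list.

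Atp5h and Atp5e, the latter coding for the small epsilon subunit, had WT folds of 12.4 and 11.8 and no Tet2 KO promoter peak. Atp5c1, Atp5o and Atp5sl had WT folds of 7.76, 6.11 and 6.74. Atp5a1, which codes for the alpha subunit that pairs with the beta subunit in the catalytic head, had no listed promoter peak, and neither had Atp5d, Atp5f1, Atp5j, Atp5j2, Atp5k, Atp5l and Atp5l-ps1. Atp5d had overlapping WT and Tet2 KO peaks of fold 7.41 and 4.30 at the start of another of its transcripts, 3683 bp downstream of the gene start.

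**Figure D2:**
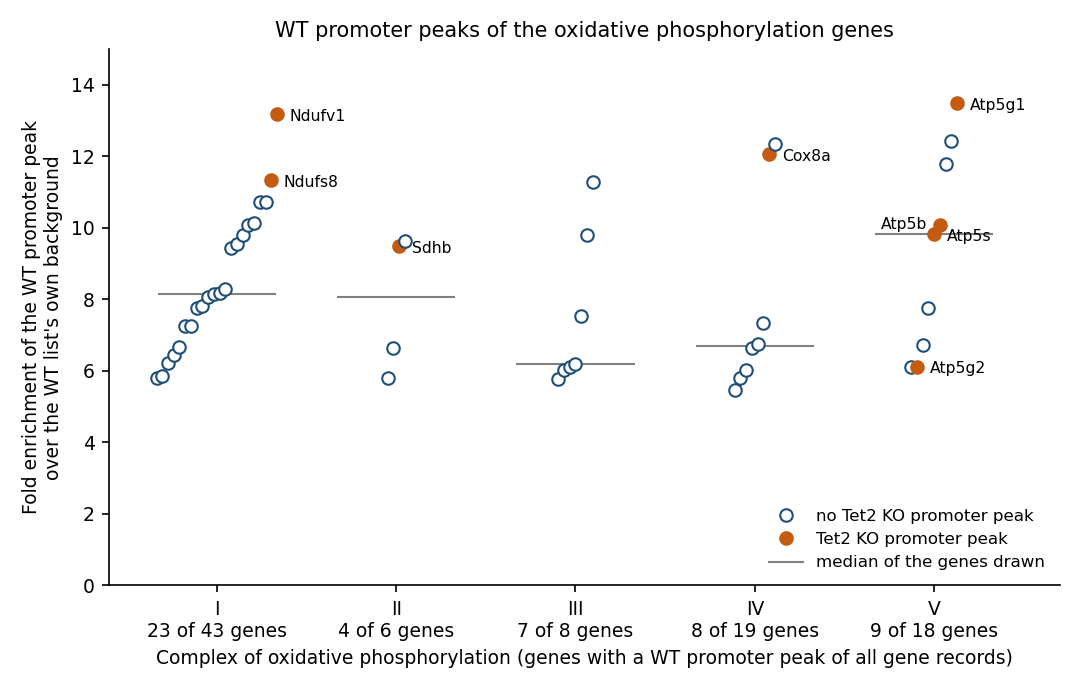
Fold enrichment of the strongest WT promoter peak for 50 of the 51 members with such a peak, by complex. The vertical axis is the fold over the local background of each peak in the WT list. Filled points are 8 of the 9 members with a Tet2 KO promoter peak, open points the others, and grey lines the medians. The highest point is Atp5g1 at 13.5, complex III has no filled point, and complex V has 4.

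The 10 members with the highest WT fold were Atp5g1, Ndufv1, Atp5h, Cox7c, Cox8a, Atp5e, Ndufs8, Uqcrc2, Ndufb11 and Ndufv2, with folds from 13.5 to 10.7, and 4 of them had a Tet2 KO promoter peak. The 9 members with a Tet2 KO peak had a median WT fold of 10.1 and 27 fragments, compared with 7.44 and 13 fragments for the 42 members with a WT peak only. The groups overlapped, since Atp5g2 ranked 40 of 51 by WT fold. Over all protein-coding genes the same dependence was seen: sorted into 5 equal groups by WT fold, WT promoter peaks of other genes were overlapped by a Tet2 KO peak in 2.52%, 7.71%, 15.03%, 33.2% and 64.2% of cases.

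In the same 5 groups the members had 2 of 16, 0 of 10, 0 of 7, 3 of 12 and 4 of 8 peaks overlapped. At the shares of other genes, 11.3 of the 53 member peaks would have been overlapped, and 9 were. The members' WT folds had a median of 7.75, with quartiles of 6.12 and 9.82, and those of all promoter peaks a median of 8.28, with quartiles of 6.67 and 10.4. In the lowest group, to which Atp5g2 belonged, the members' share was 12.5% (3.498% to 36.02%), on 2 overlapped peaks. That of the other genes was 2.52% (1.751% to 3.622%), so the intervals overlapped.

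**Figure D3:**
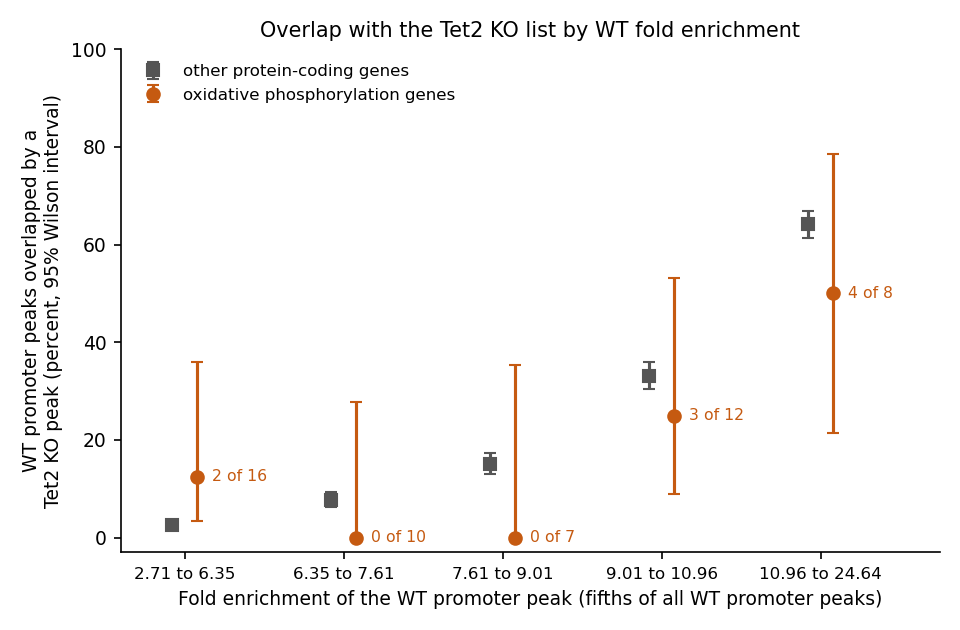
Percent of WT promoter peaks overlapped by a Tet2 KO peak (vertical axis) in 5 equal groups of WT fold enrichment (horizontal axis), for the oxidative phosphorylation genes (circles, with counts) and other protein-coding genes (squares); bars are 95% Wilson intervals. Other genes rise from 2.52% to 64.2%, and the members, with 7 to 16 peaks a group, run from 0% to 50%.

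At the 9 genes with a promoter peak in both lists, the Tet2 KO summit held fewer fragments than the WT summit in 9 of 9, with medians of 15 and 27. Among 1526 other protein-coding genes with a promoter peak in both lists the medians were also 15 and 27, and 98.2% had fewer fragments in Tet2 KO. Fragment counts were not scaled to sequencing depth, which is unknown, so a lower count is not read as a change. The median percentile within the own list was 44.7 in Tet2 KO and 71.6 in WT for the members, and 52.0 and 82.0 for the other genes. Genes present in both lists are mostly those with strong WT peaks, and the Tet2 KO list is much shorter. How far this selection lowers the rank in Tet2 KO was not tested, and a lower rank is not read as a change. At Atp5b the percentile was 71.6 in WT and 66.9 in Tet2 KO, and it lay farthest apart at Atp5s, with 69.1 and 11.3.

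**Figure D4:**
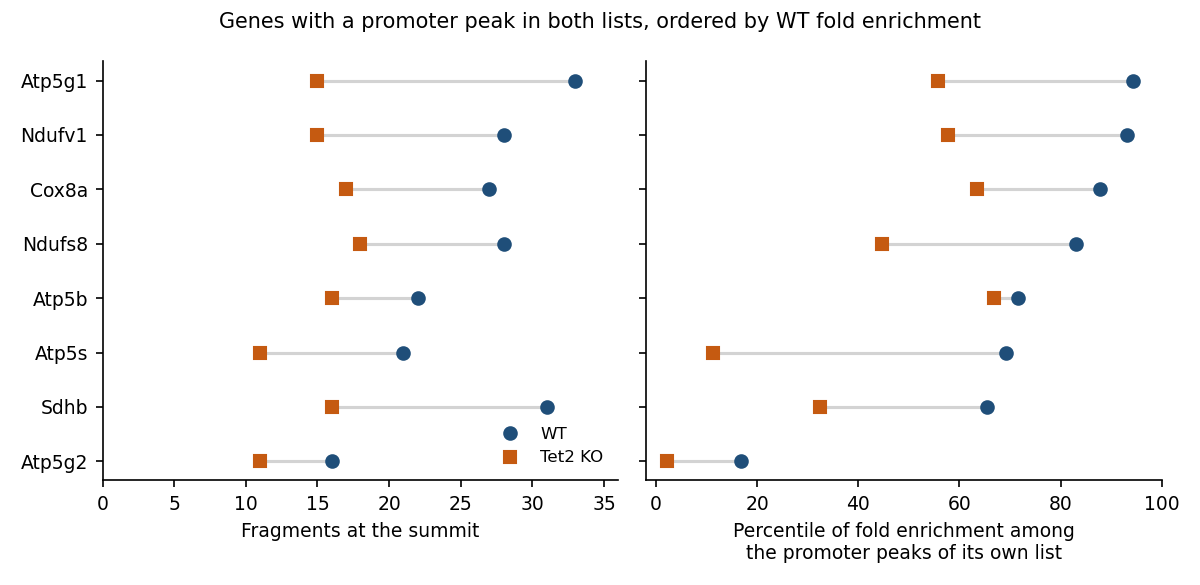
Fragments at the summit (left) and percentile of the fold enrichment among the promoter peaks of the same list (right) in WT (circles) and Tet2 KO (squares) for 8 of the 9 genes with a promoter peak in both lists, ordered by WT fold. WT lies to the right of Tet2 KO in all 8 rows of both panels, with 16 to 33 fragments in WT and 11 to 18 in Tet2 KO.

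Promoter peaks were chosen by overlap with 1000 bp upstream to 100 bp downstream of the start, so their place is partly set by this rule. The positions below describe the members, and those of all promoter peaks were not computed. Of the 51 strongest WT peaks 43 spanned the start and 35 had a summit upstream of it. The median summit was 23 bp upstream, with quartiles at 95.5 bp upstream and 9.5 bp downstream. The outermost summits were those of Ndufa11, 744 bp upstream, and Ndufaf3, 310 bp downstream. In Tet2 KO 6 of 9 spanned the start and the median summit was 66 bp upstream. At Atp5b, Ndufs8 and, for the stronger of its peaks, Atp5g1 the Tet2 KO peak ended upstream of the start. The median width was 217 bp in WT and 227 bp in Tet2 KO.

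**Figure D5:**
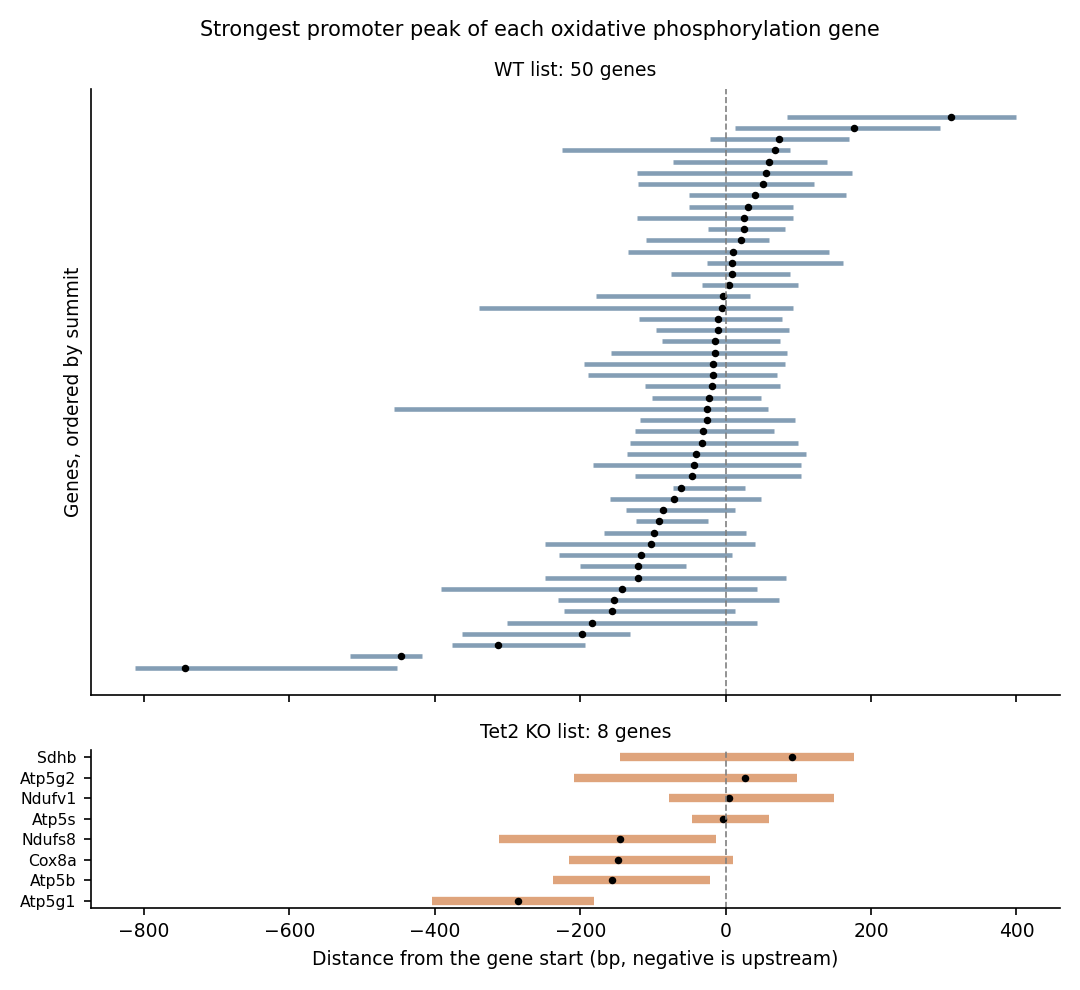
Position of the strongest promoter peak of each member relative to the gene start (horizontal axis, bp, negative is upstream), for 50 of the 51 members of the WT list (top) and 8 of the 9 of the Tet2 KO list (bottom); bars are peaks, dots summits and the dashed line the start. Most bars cross the dashed line in both panels, and the outermost WT summit lies 744 bp upstream.

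Some members share a promoter with a neighbour transcribed in the other direction. How often this holds for all protein-coding genes was not computed, so the counts are not read as particular to the members. For 25 records a protein-coding gene on the other strand started within 1000 bp upstream, and 15 of these had a WT and 1 a Tet2 KO promoter peak. The 69 records without such a neighbour had 36 and 8. Of the 53 WT promoter peaks 17 lay also at the promoter of a gene outside the set, as at Atp5h with Kctd2, Ndufb11 with Rbm10 and Ndufa2 with Ik, and such a peak cannot be assigned to either gene.

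Numbers that did not occur in the lists limit what the absence of a peak means. Of the 43 records without a WT promoter peak, 22 lay between listed peaks with consecutive numbers. The lists are numbered in genome order along each chromosome, so no WT peak had been called at the promoters of these 22. These were Ndufa4l2, Ndufa7, Ndufa9, Ndufb7, both records of Ndufb8, Ndufb10, Ndufc2, Ndufs1, Ndufs4, Sdha, Cox4i2, Cox6a2, Cox6b1, Cox6b2, Cox6c, Cox7b, Atp5d, Atp5g3, Atp5j2, Atp5l and Atp5l-ps1. For the other 21, among them Atp5a1, Cox4i1 and Cox6a1, at least 1 number was missing between the flanking peaks. Of the 42 members with a WT promoter peak and no Tet2 KO peak, 8 had no number missing in the Tet2 KO list: Ndufa3, Ndufa8, Ndufb3, Ndufb5, Ndufs7, Ndufv2, Sdhaf1 and Uqcrb. At these 8 a WT peak was present and no Tet2 KO peak had been called. The same counts over all protein-coding genes were not computed. Neither the 22 of 43 nor the 8 of 42 is therefore read as particular to the members. Of them Ndufv2, the partner of Ndufv1 in the NADH-binding module, had the highest WT fold, 10.7 with 20 fragments.

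Over the gene bodies and the 10 kb before them there were 87 WT peaks at 67 members and 15 Tet2 KO peaks at 13 members, a ratio of 5.80. Over the whole lists the ratio of peaks was 6.72. Of the WT peaks 53 lay at promoters, 13 upstream and 21 in the gene body, and of the Tet2 KO peaks 10, 1 and 4. All 15 Tet2 KO peaks overlapped a WT peak, as did 96.8% of the whole Tet2 KO list. Of the 34 WT peaks outside the promoters 5 were overlapped by a Tet2 KO peak, or 14.7% (6.45% to 30.1%), and 13 of the 34 lay at the promoter of another protein-coding gene. Of the 21 at no protein-coding promoter 1 was overlapped, or 4.76% (0.846% to 22.7%), compared with 11.2% of all WT peaks of this kind and 14.1% of the whole WT list.

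The 5 Tet2 KO peaks outside promoters were at Atp5d, Atp5e, Atp5j and, with 2 peaks, Atp5o. At Atp5j, coupling factor 6 of the synthase, the Tet2 KO peak of fold 7.13 with 16 fragments, and its WT counterpart of fold 11.1 with 24 fragments, lay at the promoter of Gabpa, the ETS factor known to bind promoters of this gene set. At Atp5e it lay 9214 bp upstream, at the promoter of Slmo2. Atp5o was the member with the most WT peaks outside its promoter: its record runs through neighbouring genes and held 8 WT and 2 Tet2 KO peaks, several of them at the promoters of Itsn1, Cryzl1 and Donson. Without Atp5o there were 79 WT and 13 Tet2 KO peaks, a ratio of 6.08. The strongest WT peak inside a gene body lay 6351 bp downstream of the start of Ndufa4, with a fold of 13.5 and 22 fragments, and no Tet2 KO peak overlapped it.

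Motifs were searched on both strands in the 300 bases from 250 bp upstream of each gene start. The NRF1 core GCATGCGC was found in 11 of 94 members, or 11.7%, compared with 3.30% of all protein-coding promoters and 6.32% of CpG-rich promoters. The YY1 letters AAGATGGC were likewise found in 11 members, or 11.7%, compared with 3.29% of all and 4.87% of CpG-rich promoters. The ERR letters AAGGTCA were found in 9 members, or 9.57%, compared with 3.92% and 2.22%. Among ribosomal protein genes the shares were 3.66% for NRF1, 7.32% for YY1 and 6.10% for ERR. No intervals were computed for motif shares, and their differences were not tested. The ETS core CCGGAAG was found in 20 members, or 21.3%, above the 10.8% of all promoters but close to the 19.7% of CpG-rich promoters and below the 28.0% of ribosomal protein genes. At least 1 of the NRF1, ETS and YY1 letters occurred in 38 members, or 40.4%, compared with 28.2% of CpG-rich promoters and 16.1% of all.

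The SP/KLF letters GGGCGGG occurred in 33.0% of members and 31.9% of all promoters, but in 57.9% of CpG-rich promoters. Among genes with a WT promoter peak they occurred in 33.3% of the members and 53.5% of all such genes. TGACGTC (CRE) occurred in 5.32% of members and 3.97% of all promoters, TGANTCA (AP-1) in 5.32% and 6.93%, and CAGCTG, the E box known to be bound by MyoD, in 14.9% and 15.2%. CCAAT occurred in 39.4% of members and 37.9% of all promoters. It was found in 25 of the 51 members with a WT promoter peak, or 49.02%, compared with 49.04% of all genes with one, and in 12 of the 43 members without.

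Among the 9 members with a Tet2 KO promoter peak, 6 held CCAAT: Atp5b and Atp5g1 with 5 matches each, Ndufs8 with 3, Atp5s with 2, and Cox8a and Sdhb with 1 each. This was 66.7% of the 9, and 63.4% of all genes with a Tet2 KO promoter peak held CCAAT. At least 2 matches occurred in 4 of these 9 members, in 8 of the 42 with a WT peak only, and in 4 of the 43 without a WT peak. Over all protein-coding genes, 38.5% of the 1552 with a Tet2 KO promoter peak and 17.3% of the 4425 with a WT promoter peak only held at least 2 matches. The NRF1 core was found at Atp5g2 and Sdhb among the 9.

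Of 27 assembly and carrier genes outside the prefixes, 16 had a WT promoter peak (59.3%) and 6 a Tet2 KO promoter peak (22.2%): Bcs1l, Etfdh, Cox18, Cycs, Ecsit and Foxred1. Bcs1l, which inserts the Rieske protein into complex III, had a WT fold of 14.9 with 41 fragments and a Tet2 KO fold of 7.25 with 20. Cycs, which codes for cytochrome c, had a WT fold of 9.63 with 17 fragments and a Tet2 KO fold of 6.29 with 14. Of 19 regulators of mitochondrial genes 9 had a WT promoter peak (47.4%) and 6 a Tet2 KO promoter peak (31.6%). Those 6 were Gabpa, Yy1, Sp1 and the nuclear receptor Esrra, which bind nuclear promoters, and Tfb1m and Tfb2m, of which the latter acts in mitochondrial transcription. Esrra had a WT fold of 12.8 with 38 fragments and a Tet2 KO fold of 6.92 with 23, and Tfam, a packaging and transcription factor of mitochondrial DNA, had a WT promoter peak and no Tet2 KO peak. Over all protein-coding genes the shares were 26.7% in WT and 6.94% in Tet2 KO, and among CpG-rich genes 48.3% and 13.5%. No intervals were computed for the 27 and 19 genes. These genes were listed with earlier results of these data known, and the difference between their shares and the 9.57% of the members was not tested.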

How the data were processed

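ATAC-seq libraries were made by the authors from 5000 myoblasts each and sequenced as paired 150-bp reads. By the study's methods reads were trimmed to 36 bp, mapped to mm9 with Bowtie2, filtered at a mapping quality of 30, cleared of duplicates with Picard, and searched for peaks with MACS2. The submitters' processing notes also name CASAVA; versions are not given in the sources used here. By the methods peaks were called for each sample, and each deposited list carries 1 library code that the labels do not explain, so a list may hold a single sample. The deposited lists, 1 per genotype, give each peak its fold enrichment (a ratio to the local background), the −log10 p-value and the −log10 q-value, and were tied to genotypes by their names. By the methods a single q-value cutoff served every sample. The lowest −log10 q-value was nevertheless 2.18 in the WT list and 0.863 in the Tet2 KO list, so the lists do not share a lower limit. With a −log10 q-value of at least 2 in both lists, 51 members still had a WT and 9 a Tet2 KO promoter peak. The depth of the samples is unknown.

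Fragments at each summit were recovered from the fold and the p-value (25775 of 25775 and 3836 of 3836 peaks, to within 0.001 in −log10 p). Peaks were assigned to genes by an overlap of at least 1 bp with Python 3.11.15, numpy 2.4.6, pandas 2.3.3 and scipy 1.17.1; fragment recovery, overlaps and missing numbers were checked on simulated data. Shares carry Wilson intervals. No test was made between genotypes. Promoter sequences came from the mm9 genome (NCBIM37). Named were the members with a Tet2 KO promoter peak, the 10 with the highest WT fold, the tissue isoforms and their partners, members without a WT promoter peak and those with at least 3 WT peaks outside the promoter; other genes were named after their values had been seen. The members and lists were chosen with earlier results of these data known. Timmdc1 and Perm1 matched no gene record. Values of 1 member are not reported here and not drawn; it is included in the counts.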

Additional observations from a re-analysis of the deposited data

How the results depend on the processing

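The promoter and overlap shares and the ratio of WT to Tet2 KO peaks were recomputed under other thresholds, windows, gene starts and member sets. Of 43 alternative values 38 stayed within a set limit and 5 did not. For a share the limit was the Wilson interval of the main value. For the ratio it was a fixed factor around the main value, which is not a counting error. At a −log10 q-value of at least 10 in both lists, 29.8% of members had a WT promoter peak, 0% had a Tet2 KO promoter peak and 0% of the WT promoter peaks were overlapped, and no ratio could be given (46 WT and 0 Tet2 KO peaks). With a −log10 q-value of at least 5, and also with a fold of at least 5, the ratio of WT to Tet2 KO peaks rose from 5.80 to 9.33. The cause of these changes was not tested. The members' WT share exceeded that of all protein-coding genes in all 10 settings that can alter it, by 1.78 to 2.10 times, and their Tet2 KO share did so in 9 of 10, the exception being a −log10 q-value of at least 10. Leaving out Atp5o, or the second Ndufb8 record and Atp5l-ps1, were alternatives chosen after seeing the data. No paired analysis was possible because WT and Tet2 KO are represented by 1 list apiece without replicates, so no replicate could be left out either. Summits rest on 8 to 33 fragments in WT and 11 to 18 in Tet2 KO, so a peak missing from the Tet2 KO list does not show that the promoter was closed. The genotype, the background and the number of listed peaks change together and cannot be told apart.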
